A study of Drosophila melanogaster with 52 samples.

Results

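The genes described here encode the proteins of the cytosolic ribosome of Drosophila melanogaster. Members were chosen by name alone, as every gene whose symbol begins with RpL or RpS followed by a digit, or by P and a digit for the acidic stalk proteins. The rule found 92 of the 16680 genes in the expression tables, of which 54 carry a large-subunit name and 38 a small-subunit name. No expression value entered the rule. It takes in every copy of duplicated genes and ribosomal-protein-like genes. For a narrower set, only the copy with the highest mean level was kept within each such group. This set aside 14 lesser copies, not all of them weakly expressed, and 78 members remained.

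Ribosomes translate every mRNA of the cell, and their proteins are made in near-equal numbers because each ribosome takes a copy of nearly every one. The small subunit decodes the mRNA, the large subunit joins the amino acids, and the acidic stalk formed by RpLP0, RpLP1 and RpLP2 recruits the elongation factors. In animals the mRNAs of ribosomal proteins carry a tract of pyrimidines at their start through which TOR signalling and the protein Larp set their translation, and loss of 1 copy of many of these genes gives the slow-growing Minute flies. The Drosophila egg is loaded with maternal mRNA and ribosomes by the nurse cells of the ovary, and the earliest embryo runs on this supply until its own genes are switched on.

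Poly(A) RNA, by the label, or rRNA-depleted total RNA, by the protocol, was sequenced from whole hand-selected embryos in 52 libraries that fall into 26 groups of 2 biological replicates, each replicate a pool of embryos. Every mutant or overexpression group had a wild-type group (w1118) of its own experiment at the same age, and ages were 0.5-1 h, 1-1.5 h and, for the HIRA and H3.3 experiments only, 2.5-3 h after egg laying. The dPCIF1 mislocalized embryos carried GFP-tagged dPCIF1 (CG11399, a homologue of the mammalian cap methyltransferase PCIF1) that a maternally expressed anti-GFP nanobody fused to Jabba held in the cytoplasm. M-Z+ HIRA embryos lacked the maternal product of the histone H3.3 chaperone gene Hira, and the study described delayed or arrested nuclear divisions in many of them. By its label the zygotic copy was present (Z+), but the allele that each embryo carried was not checked. The study also cites a role of HIRA in forming the diploid zygote, and the ploidy of these embryos was not measured here. M-Z+ H3.3 embryos came from the few surviving females mutant for both H3.3A and H3.3B. The overexpression embryos carried maternally expressed myc-tagged HIRA, alone or with dPCIF1, and these groups shared 1 set of wild-type libraries. The dPCIF1 S111A S115A embryos carried alanine at both serine sites of the endogenous protein. The design gives 14 comparisons of genotype and 7 comparisons of consecutive ages within wild type.

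Library totals ran from 15073545 to 31579940 counts, with a median of 23610130.5. The manipulated genes moved with the labels where RNA could show it. Hira was at 73.6 and 73.0 CPM (counts scaled to the library size) in M-Z+ HIRA embryos of 0.5-1 h against 175 and 165 CPM in wild type, and in the overexpression groups it reached between 1750 and 2360 CPM. At 2.5-3 h, however, Hira was higher in the libraries labelled M-Z+ HIRA mutant (20.4 and 18.3 CPM) than in their wild type (10.8 and 10.01 CPM), so that direction does not check those labels. CG11399 was at 78.5 and 76.6 CPM in S111A S115A embryos of 0.5-1 h against 389 and 398 CPM, and His3.3B at 252 and 246 CPM in H3.3 mutants against 682 and 708 CPM. Trapping a protein leaves no such trace in its RNA, so the dPCIF1 mislocalized libraries have no check of this kind. Marker lists moved with several groups, and some of their values, not all, stand beside the results below. Those of later differentiated cells are summed for 1 comparison only. Among them Mhc reached 603 CPM and elav 350 CPM in the library where each was highest. Because whole embryos were measured, fewer cells of a type and less RNA per cell cannot be told apart.

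Ribosomal protein mRNAs were among the most abundant RNAs of the early embryo. In TPM (a share of transcripts, which divides by transcript length and so allows genes to be compared), 68 of the 92 members stood among the 100 genes with the highest median over the 52 libraries and 80 among the top 200. The 78 members left after the 14 lesser copies were set aside had median TPM between 811 and 12408, with a median of 1948. Among the 14, RpS14b still had 557 TPM and RpL34a 418 TPM. Of the 92 members, 79 lay between 500 and 4000 TPM. RpL41, which encodes the shortest ribosomal protein, was the highest at 12408 TPM, rank 3 of all genes. Next came RpS23, a protein of the decoding centre, at 3636 TPM, RpL29 at 2965 TPM, RpL27A at 2800 TPM and RpS3A at 2775 TPM. At the other end RpL10Aa, RpS28-like and RpS28a had a median TPM of 0 and never exceeded 3 reads in any of the 52 libraries. RpL22-like had a median of 0.06 TPM and RpL37b of 0.345 TPM. In all, 85 members were above 3 reads in every library, 3 being the largest mean count that an observed 0 allows at 95%. That floor came to between 0.0950 and 0.199 CPM and covers counting error only.

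**Figure D1:**
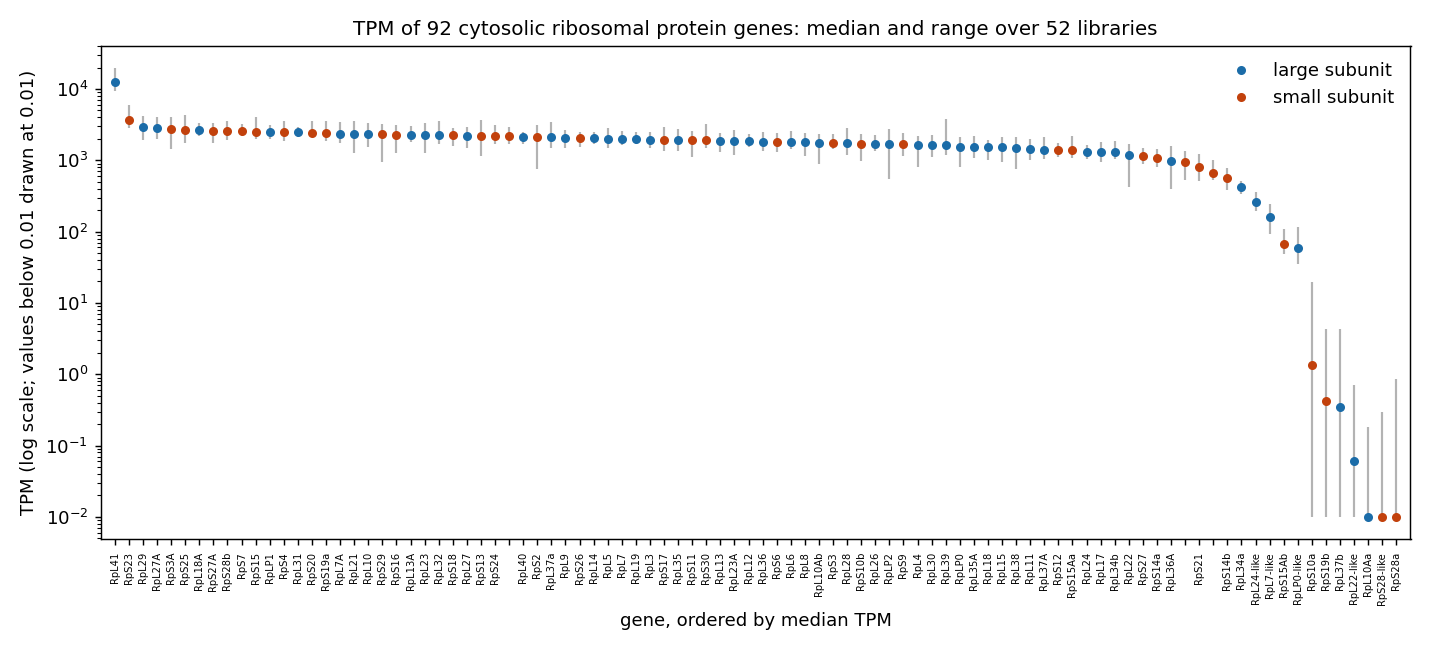
The 92 genes in order of median TPM (log axis). Points are medians over the 52 libraries and lines the range from the lowest to the highest library, in blue for large-subunit and red for small-subunit genes, and values under 0.01 are drawn at 0.01, and a few genes are drawn without a label. Most members form a shelf between 500 and 4000 TPM, RpL41 stands above it at 12408, and the weakest paralogs trail off to 0.

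The members are spread over the genome (dm6, RefSeq annotation of the same assembly). Arm 2L holds 19, 2R 21, 3L 14, 3R 23, X 14 and chromosome 4 only RpS3A. Inside 28 of them lie 74 annotated snoRNA or snRNA genes, and 25 overlap another protein-coding gene, so part of their reads could belong to the neighbour. RpS10a, which returns below, is a single-exon gene at chr3R:27652760-27653363 on the plus strand, within an intron of tau (chr3R:27639886-27656996), which lies on the minus strand, and it overlaps 0 exons of tau.

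Where a ribosomal protein has 2 genes, 1 of them often gave nearly all the RNA. RpS10a accounted for a median of 0.0644% of the RpS10 counts, RpS19b for 0.0181% of the RpS19 counts, and RpS15Aa for 95.4% of the RpS15A counts. RpLP0-like, a relative of the stalk protein that acts in large-subunit assembly, took a median of 2.82% of the counts of RpLP0 and RpLP0-like together, with 8.44% and 7.33% in HIRA controls of 2.5-3 h and 3.78% and 3.61% in the mutant. RpS14a (61.8% to 74.9% of its pair) and RpS14b are near-identical neighbours, as are RpS15Aa and RpS15Ab in sequence, and RpL22 and RpL7-like also had fractional counts in nearly all libraries, so the values of these genes are uncertain.

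RpL24-like ranged from 11.3% to 22.2% of the counts of RpL24 and RpL24-like, RpL7-like from 5.09% to 11.3% of its pair, and RpL34a from 18.04% to 28.2% of the RpL34 counts. The germline-type paralogs stayed minor everywhere. RpL37b never exceeded 0.098% of the RpL37 counts, RpL22-like 0.079% of the RpL22 counts, and RpS28a and RpS28-like 0.00768% of the RpS28 counts. In every library the main genes for RpL37, RpL22 and RpS28 gave nearly all of the counts.

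The members held a larger part of the RNA in the oldest embryos. Summed over the 92 genes they took 5.40% to 8.10% of all counts in the 22 libraries of 0.5-1 h (median 6.41%), 5.35% to 7.68% in the 22 of 1-1.5 h (median 6.88%) and 7.89% to 9.54% in the 8 of 2.5-3 h (median 8.22%). The highest values at 0.5-1 h came from a wild-type pair, the controls of the dPCIF1 mislocalized embryos, at 8.10% and 8.08%, whereas the other 8 wild-type libraries of that age lay between 5.40% and 6.70%. By CPM, scaled within each experiment, those 2 control libraries were above all 8 others in 60 of the 78 more abundant members, and below all in 2. The mutant libraries, at 5.80% and 5.66% of counts, lay inside the range of those 8 wild-type libraries, and were above all 8 in 0 of the 78 members and below all in 7. The TPM scale gave another order. Members summed there to 14.998% and 14.7% of TPM in the controls, the second being the lowest of the 14.7% to 17.3% spanned by libraries of this age, and to 15.04% and 15.1% in the mutant. RSEM also took 199.4 and 200.2 bases off each transcript's length in these controls but 224.7 and 228.3 bases in the mutant. This term follows the mean fragment length of a library. It was 218.1 to 230.7 bases in the H3.3 experiment but 98.5 to 98.7 in the HIRA, overexpression and S111A S115A experiments. Shares, TPM and CPM compared across experiments thus also cross this difference between libraries. Its part in the count share was not tested.

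**Figure D2:**
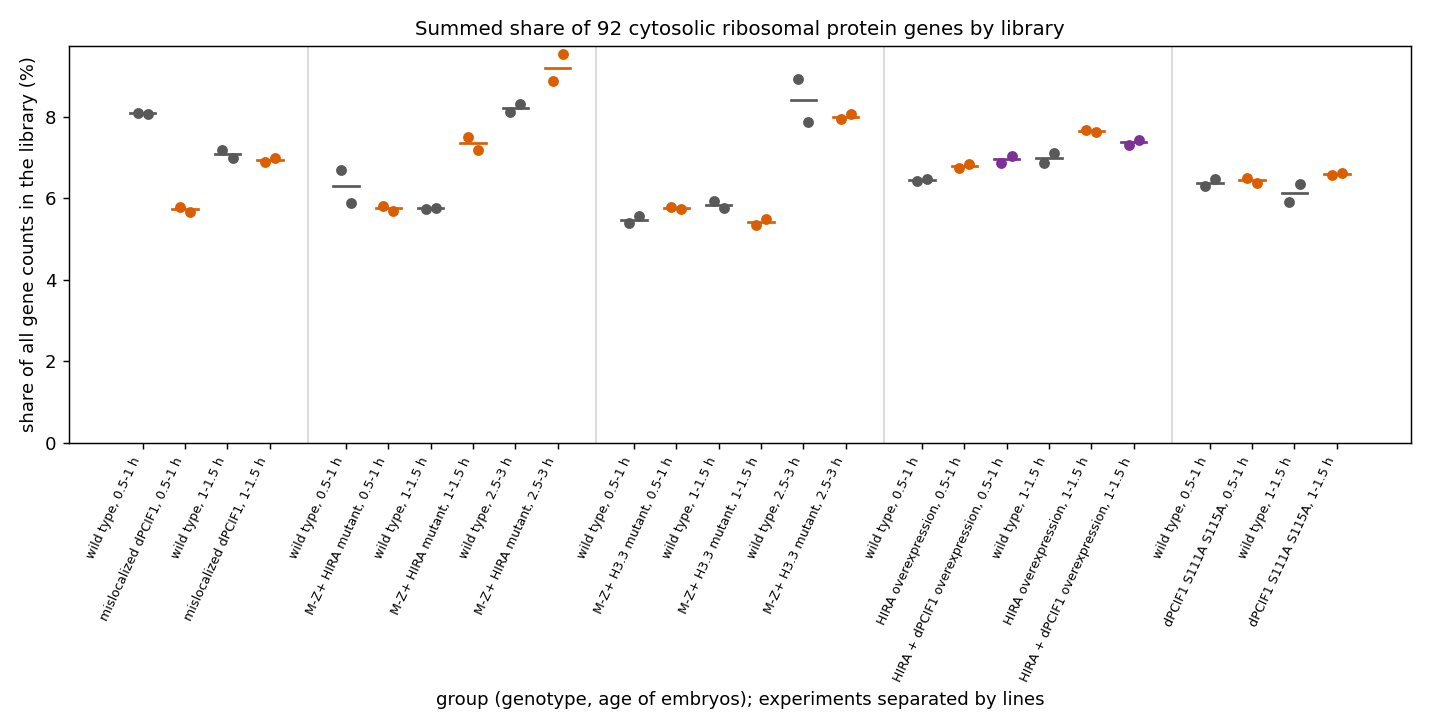
Summed share of all counts taken by the 92 genes (percent, y axis) in each of the 52 libraries, grouped by experiment and age. Grey points are wild type, orange points a mutant or HIRA overexpression, purple points HIRA with dPCIF1, and short lines are group means. Libraries of 2.5-3 h sit between 7.89% and 9.54%, and the dPCIF1 controls of 0.5-1 h at 8.10% and 8.08% stand above the other wild-type libraries of their age.

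Most members varied about 2-fold across the study. Over the 26 group means the ratio of highest to lowest CPM had a median of 2.03 among the 78 more abundant members. It exceeded 2 in 40 of them and 3 in 6, which were RpLP2 (6.50), RpL22 (4.40), RpS2 (3.64), RpL36A (3.35), RpL37A (3.21) and RpL27 (3.02). The steadiest was RpL40, made as a fusion to ubiquitin, at 1.44, followed by RpL31 and RpL19 at 1.54 each. CPM was scaled within each experiment, so ratios across experiments also carry any difference in that scaling and in the fragment length of the libraries. Each of the 86 members tested in every experiment was compared with the mean of the others across the 26 groups. RpL26 had a Pearson r of 0.96, while RpS10a had -0.13, RpL36A -0.01, RpS29 0.17, RpLP0 0.19 and RpL23 0.23. These correlations are descriptions, since the groups share experiments, ages and controls.

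For each comparison all genes of an experiment were fitted together with edgeR's quasi-likelihood test, and a gene passed when its Benjamini-Hochberg adjusted p was under 0.05. It was called when its log2 fold change was in addition above 1 or below -1. Fold changes are mutant over wild type, on the log2 scale, with their standard error (SE), and n is 2 libraries in every group. The share of all tested genes that did the same is given with each count of members.

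**Figure D3:**
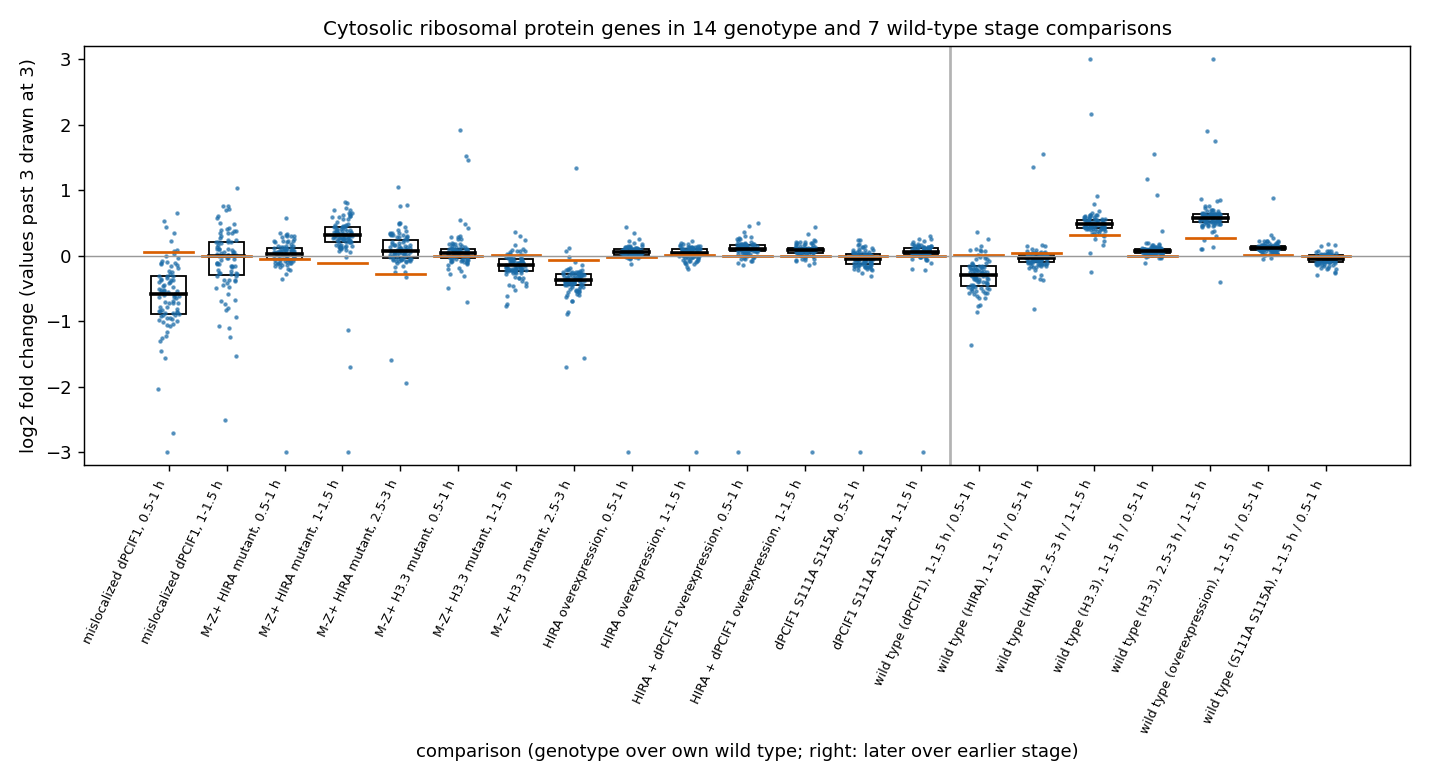
Log2 fold change (y axis) of every tested member in the 14 genotype and 7 wild-type age comparisons (x axis). Points are genes, boxes quartiles, black lines the members' median and orange lines the median of all tested genes, and values past 3 are drawn at 3. The members lie lowest in dPCIF1 mislocalized embryos of 0.5-1 h (median -0.59) and highest between the 2 older ages of wild type (0.49 and 0.58).

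Ribosomal protein mRNAs were lower in dPCIF1 mislocalized embryos of 0.5-1 h than in their wild type. Of 86 members tested, 75 passed as lower and 5 as higher, where 34.3% and 40.0% of the 8700 genes tested did so. The median log2 fold change was -0.59 (quartiles -0.89 and -0.31; -0.61 to -0.57 over the 4 pairs of libraries) against 0.06 over all genes, and large-subunit (-0.56) and small-subunit genes (-0.62) had similar medians. A total of 14 members were called lower and 0 higher (also 0 higher by DESeq2 and at an unadjusted p under 0.05), where 4.34% of genes were called lower. The count depended on the scaling, with 9 called by library size and 9 with transcript lengths as RSEM gave them for each library, an alternative chosen after seeing the data. The medians were then -0.47 and -0.49, and library sizes moved the median of all genes from 0.06 to 0.18. The controls are the libraries with the high member share described above, whereas the mutant's share of counts (5.80% and 5.66%) was inside the 5.40% to 6.70% of the other wild-type libraries of this age, and only 7 of the 78 more abundant members were below all of those. In these embryos all 12 zygotic blastoderm markers were also higher (summed 218 and 220.5 CPM against 52.05 and 52.5 CPM). The part of either in the result was not tested.

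Among the abundant members the deepest change was in the stalk. RpLP2 was at 253 and 185 CPM in the mislocalized embryos and at 1401 and 1446 CPM in wild type, a log2 fold change of -2.70 (SE 0.09, adjusted p = 1.19e-13). Its partners moved much less, RpLP1 by -0.40 (SE 0.04) and RpLP0 by -0.16 (SE 0.03). RpL22 was at 405 and 352 CPM against 1525 and 1575 CPM (-2.03, SE 0.05, adjusted p = 2.15e-15). RpL37A was at 296 and 277 CPM against 839 and 844 CPM (-1.55, SE 0.05). RpL27 was at 485 and 438 CPM against 1225 and 1304 CPM (-1.45, SE 0.05). These 4 are all large-subunit proteins, and in each the groups were far apart. In each of them this wild-type group was also the highest of all 26 groups by CPM, scaled within each experiment. The lowest group was the mislocalized embryos of this age for RpLP2, but H3.3 mutants of 1-1.5 h for RpL22, RpL37A and RpL27. Among small-subunit genes RpS16 (-1.25, SE 0.03), RpS20 (-1.22, SE 0.03) and RpS2, a protein near the mRNA entry channel (-1.16, SE 0.03), were the lowest after RpS10a. RpL10Ab (-1.30), RpS14a (-1.07), RpS14b (-1.06), RpS25 (-1.01) and RpS9 (-1.001) were among the others called. A few members went the other way. RpS29, a small zinc-binding protein, was at 737 and 713 CPM against 436 and 487 CPM (0.65, SE 0.04, adjusted p = 6.28e-10), RpS13 rose by 0.53 (SE 0.03) and RpL36A by 0.44 (SE 0.05).

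By 1-1.5 h the set as a whole no longer differed in level. Its members passed about as often as all genes and were called less often. The median was 0.00 (quartiles -0.30 and 0.21), with 33 of 86 passing as higher and 36 as lower, close to the 40.0% and 41.7% of all genes. There was 1 member called higher and 5 lower, where 12.7% and 14.5% of genes were. RpLP2 was again the lowest of the abundant members, at 289 and 258 CPM against 815 and 759 CPM (-1.53, SE 0.09, adjusted p = 3.71e-11). RpS2 was at 504 and 518 CPM against 1215 and 1193 CPM (-1.24, SE 0.03, adjusted p = 1.5e-15). RpL38, known in the mouse for the translation of Hox mRNAs, was at 167 and 188 CPM against 375 and 387 CPM (-1.11, SE 0.06), and RpL22 at 475 and 468 CPM against 1007 and 977 CPM (-1.07, SE 0.05). RpL36A was at 261 and 274 CPM against 134 and 127 CPM (1.03, SE 0.05, adjusted p = 5.89e-12). RpS13 and RpL7-like rose by 0.76 each (SE 0.03). RpLP1 rose by 0.21 (SE 0.04) while RpLP0 fell by 0.37 (SE 0.03), so the 3 stalk genes did not move as one. The zygotic markers stood at 1302 and 1272 CPM against 150.5 and 155 CPM in these libraries, and their part in the result was not tested.

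In M-Z+ HIRA embryos the set was level at 0.5-1 h and higher at 1-1.5 h. At the first age 12 of 88 members passed as higher and 6 as lower, against 22.5% and 29.8% of the 10638 genes, and the median of 0.03 turned to -0.14 when scaled by library size (2 higher, 29 lower) and to -0.04 with DESeq2 (8 higher, 11 lower). These counts rested on the control libraries, with 22 higher and 2 lower without wild-type replicate 1, 15 lower without replicate 2 and 7 higher without either mutant library (3 lower without mutant replicate 2). RpL36A was at 361 and 359 CPM against 267 and 216 CPM (0.57, SE 0.09, adjusted p = 0.000426) and RpLP0 at 1294 and 1306 CPM against 1073 and 973 CPM (0.35, SE 0.06). RpS4 was at 1382 and 1356 CPM against 1727 and 1603 CPM (-0.28, SE 0.07). RpS10a was the 1 member called, and it was lower, as were 15.8% of genes.

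At 1-1.5 h 69 of 88 members passed as higher and 1, RpS10a, as lower, where 20.1% and 34.5% of genes did so. The median was 0.32 (quartiles 0.22 and 0.44; 0.30 to 0.34 over the pairs) against -0.11 over all genes, and between 60 and 68 passed as higher with each library left out. Only RpS10a was called, in the direction in which 21.2% of genes were called. RpL36A was at 405 and 363 CPM against 222 and 212 CPM (0.82, SE 0.09, adjusted p = 2.84e-05). RpLP0 was at 1456 and 1376 CPM against 803 and 827 CPM (0.80, SE 0.06, adjusted p = 1.45e-06), RpLP2 at 665 and 680.2 CPM against 403 and 431 CPM (0.69, SE 0.09), and RpLP1 rose by 0.43 (SE 0.05), so here the whole stalk went up. The 12 zygotic markers were all lower in these mutants (summed 317 and 314 CPM against 668 and 659 CPM), and markers of later differentiated cells summed to 1.80 and 3.07 CPM against 186 and 187 CPM. Their part in the result was not tested.

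At 2.5-3 h the members' median was 0.07, against -0.28 over all genes and -0.02 over genes with a mean of at least 10 CPM. The members stood 0.35 above all genes, by library size as well. In libraries labelled M-Z+ HIRA mutant 27 of 88 members passed as higher and 6 as lower, against 26.9% and 48.1% of genes, and the median of 0.07 turned to -0.03 with DESeq2, which had 17 higher and 14 lower, and to 0.31 (75 higher) when all experiments were fitted together. Without mutant replicate 1 the count higher was 41, and without wild-type replicate 2 the count lower was 3. RpLP0 was called higher, at 1380.3 and 1439 CPM against 662 and 704 CPM (1.05, SE 0.06, adjusted p = 3.95e-08), among 9.89% of genes called higher. RpL37b and RpS10a were called lower, among 27.7% of genes. RpL36A was at 404 and 419 CPM against 246 and 241 CPM (0.75, SE 0.09). RpS15Ab was at 39.2 and 38.2 CPM against 49.8 and 47.6 CPM (-0.33, SE 0.06). RpL36A and RpLP0 thus passed as higher at all 3 ages of this mutant. Maternal markers were also higher in these libraries, at 3706 and 3589 CPM summed against 935 and 928 CPM, and their part was not tested.

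Ribosomal protein mRNAs were lower in M-Z+ H3.3 embryos at 2.5-3 h. There 74 of 89 members passed as lower and 1 as higher, against 42.5% and 40.0% of the 10644 genes. The median was -0.37 (quartiles -0.45 and -0.28; -0.49 to -0.24 over the pairs) against -0.06 over all genes. The size rested on the scaling, since by library size 22 passed as lower and 5 as higher and the median was -0.06 with all genes at 0.25, about as far above the members as before. With each library left out 63 to 81 passed as lower, and the median was -0.23 without wild-type replicate 1. RpL8, a protein of the peptidyl transferase region, was at 1022 and 1007 CPM against 1849 and 1914 CPM (-0.89, SE 0.06, adjusted p = 1.91e-09). RpL4, which lines the exit tunnel, was at 1443 and 1472 CPM against 2467 and 2236 CPM (-0.69, SE 0.06), and RpLP0 at 1001 and 1055 CPM against 1562 and 1422 CPM (-0.54, SE 0.06). The least affected of the members that fell were RpS29 (-0.23) and RpLP1 (-0.22). The wild-type replicates of this age differed from each other, with RpL22 at 786 and 515 CPM and RpL10Ab at 1068 and 649 CPM, so that several members missed the test. RpS10a was called higher, and RpS19b and RpL37b were called lower, among 25.7% and 17.7% of genes. Maternal markers summed to 4072 and 3959 CPM against 1318 and 1403 CPM, and their part was not tested.

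Earlier H3.3 embryos changed less. At 0.5-1 h 7 members passed as higher and 4 as lower, against 15.8% and 18.2% of genes, with a median of 0.05, and 3 to 5 passed as higher with any 1 library left out. RpL4 was already lower, at 906 and 857 CPM against 1444 and 1428 CPM (-0.70, SE 0.06, adjusted p = 5.37e-08), as was RpL8 at 867 and 805 CPM against 1208 and 1148 CPM (-0.49, SE 0.06). RpL39, a small protein of the exit tunnel, was at 173 and 191 CPM against 117 and 144 CPM (0.48, SE 0.09). RpS10a was called higher, as were 6.21% of genes. At 1-1.5 h 26 passed as lower and 1 as higher, against 20.2% and 22.1% of genes, with a median of -0.14. Leaving out 1 library cut that count to 5 (wild-type replicate 1), 11 (wild-type replicate 2) or 14 (mutant replicate 1). No member was called by edgeR or DESeq2, 37 members had an unadjusted p under 0.05, and 14.2% of genes were called in either direction. RpS2 was at 637 and 564 CPM against 842 and 884 CPM (-0.52, SE 0.12), RpLP0 at 1015 and 991 CPM against 1394 and 1373 CPM (-0.46, SE 0.06) and RpL8 at 859 and 966 CPM against 1223 and 1287 CPM (-0.46, SE 0.06). At all 3 ages RpL8, RpL4 and RpLP0 passed as lower. Follicle and eggshell markers summed to 214 and 245 CPM in the mutants of 1-1.5 h against 0.0354 and 0.0347 CPM, and their part was not tested.

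Overexpression shifted the set by small amounts. With HIRA alone at 0.5-1 h 25 of 86 members passed as higher and 1 as lower, against 21.1% and 25.1% of the 8974 genes, with a median of 0.05 that became -0.02 when all experiments were fitted together. Leaving out any 1 of the 4 libraries left 9 to 16 higher, and the joint fit, which estimates 1 spread over all experiments, 3. RpS21 was at 177 and 195 CPM against 137 and 139 CPM (0.43, SE 0.06, adjusted p = 6.64e-06) and RpL24-like at 114.6 and 115.6 CPM against 88.9 and 91.8 CPM (0.35, SE 0.04). At 1-1.5 h 31 passed as higher and 7 as lower, against 33.2% and 35.0%, with a median of 0.03, library sizes gave 65 higher and 0.12, and the joint fit 4 higher. The count higher fell to 12 without overexpression replicate 1, 19 without replicate 2 (with 4 lower) and 11 without wild-type replicate 1. RpLP0 was at 1189.7 and 1210.5 CPM against 1371 and 1346 CPM (-0.18, SE 0.03). RpS10a was the 1 member called at each age, lower, among 5.19% and 6.96% of genes.

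With HIRA and dPCIF1 together 53 of 86 passed as higher and 4 as lower at 0.5-1 h (22.9% and 22.6% of genes), and 45 and 2 at 1-1.5 h (24.3% and 26.1% of genes). The medians were 0.10 and 0.09. The joint fit left 8 and 9 higher. Without overexpression replicate 2 the first count was 32, and without wild-type replicate 1 the second was 19. RpS2 led at both ages, at 1689.9 and 1753 CPM against 1238 and 1194 CPM (0.50, SE 0.04, adjusted p = 1.8e-08) and at 1844 and 1873 CPM against 1298 and 1434 CPM (0.44, SE 0.04). RpLP0 was at 1511 and 1484 CPM against 1176 and 1155 CPM (0.36, SE 0.03). RpS10a was again the 1 member called at each age, lower, among 5.94% and 7.02% of genes. The difference between the overexpression groups themselves was not tested.

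In dPCIF1 S111A S115A embryos 4 of 86 members passed as higher and 18 as lower at 0.5-1 h, against 13.9% and 16.1% of the 8746 genes, and 17 and 3 at 1-1.5 h, against 22.9% and 25.3%. The medians were -0.05 and 0.06. With any 1 of the 4 libraries left out the 18 became 4 to 10, the 17 ranged from 5 to 31, and the 3 became 10 without wild-type replicate 1. RpLP0 was lower at both ages, at 1352 and 1279 CPM against 1610.1 and 1644 CPM (-0.31, SE 0.04, adjusted p = 0.000158) and at 1359 and 1326 CPM against 1517 and 1571 CPM (-0.20, SE 0.04). RpS6, the target of S6 kinase, was at 1202 and 1202 CPM against 977 and 1049 CPM at 1-1.5 h (0.25, SE 0.05). RpS10a was called lower at both ages, among 2.08% and 5.34% of genes.

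**Figure D4:**
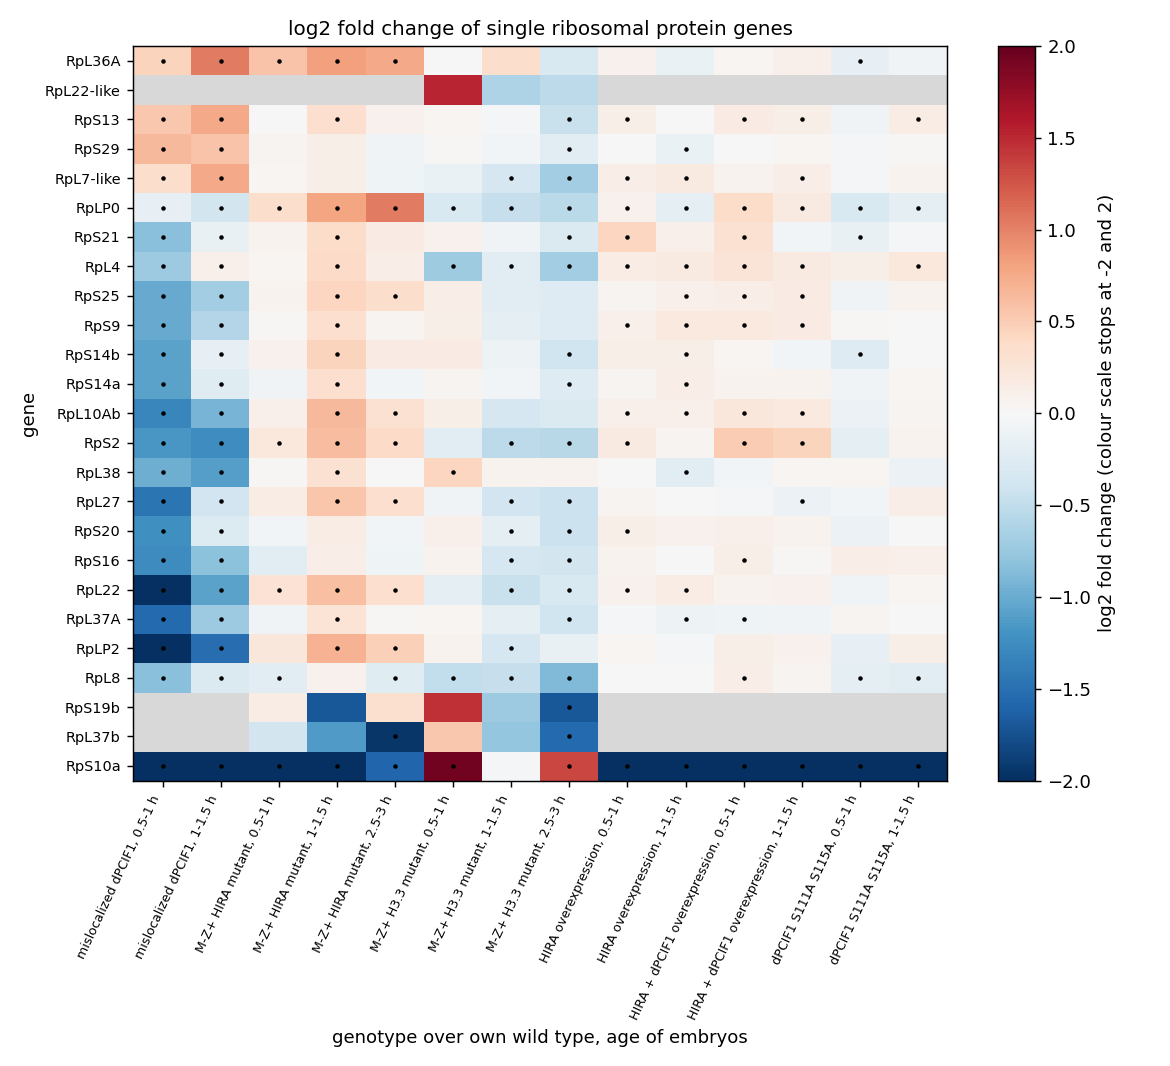
Log2 fold change of 25 members (y axis) in the 14 genotype comparisons (x axis), coloured from blue (lower) to red (higher) with the colours ending at -2 and 2. Dots mark an adjusted p under 0.05 and grey cells were not tested. RpS10a is blue except in H3.3 mutants, and RpLP2 and RpL22 are darkest in dPCIF1 mislocalized embryos (-2.70 and -2.03 at 0.5-1 h).

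RpS10a was the outlier of the set. Of 41 calls of a member in a comparison, shared by 20 members, 14 were RpS10a. It is the minor of the genes for RpS10 and gave few reads, so its values are given as reads. In wild type it had 9 to 60 reads in every library. In dPCIF1 mislocalized embryos of 0.5-1 h it had 1 and 0 reads against 18 and 29, and at 1-1.5 h 2 and 2 against 11 and 11. In M-Z+ HIRA embryos it had 1 and 0 against 25 and 15, then 0 and 0 against 11 and 9, and at 2.5-3 h 5 and 3 against 15 and 14. With HIRA overexpressed it had 2 and 2, then 3 and 3, and with dPCIF1 added 1 and 4, then 0 and 3, against 20 and 34, then 47 and 35, in their common wild type. In S111A S115A embryos it had 1 and 1 against 15 and 10, and 2 and 0 against 13 and 10. In each of these 11 comparisons both libraries outside wild type had fewer reads than both of wild type. How often all genes separate in this way was not counted, and the overexpression comparisons share their wild-type libraries. H3.3 mutants went the other way, with 195 and 190 reads against 43 and 60 at 0.5-1 h and 94 and 93 against 23 and 28 at 2.5-3 h, while at 1-1.5 h the 50 and 40 reads overlapped the 60 and 42 of wild type.

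**Figure D5:**
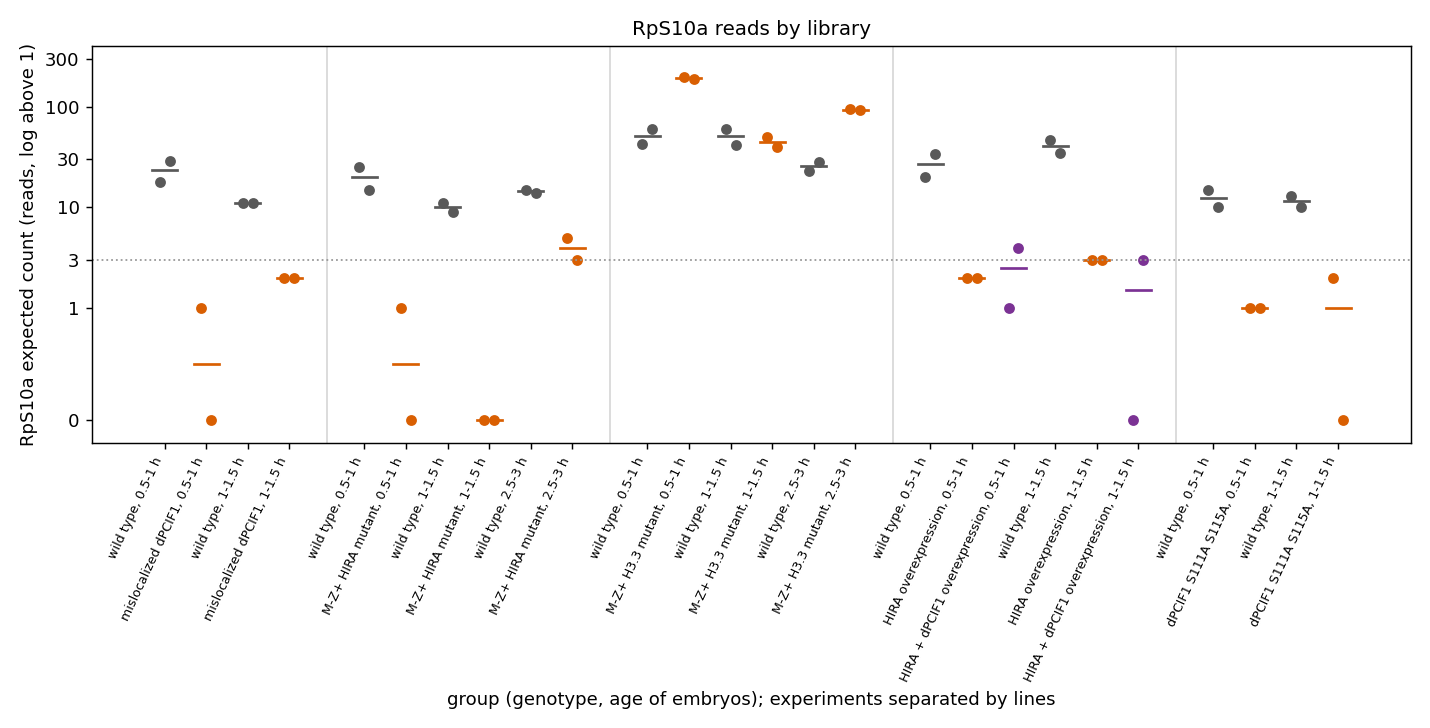
RpS10a reads (y axis, log above 1) in each library, by experiment and age. Grey points are wild type, coloured points the other genotypes (purple for HIRA with dPCIF1), short lines group means, and the dotted line marks 3 reads. Wild-type libraries hold 9 to 60 reads, H3.3 mutants 40 to 195 and the remaining libraries 0 to 5.

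As ratios of summed reads scaled by library size, with exact conditional 95% intervals for counting error, wild type exceeded the mislocalized embryos 62.2-fold (10.6 to 2507) and 5.98-fold (2.03 to 23.9). For HIRA mutants the ratios were 26.9-fold (4.56 to 1088), at least 3.06-fold against a floor of 3 counts per library, and 3.06-fold (1.37 to 7.76) at the 3 ages. For HIRA overexpression they were 10.3-fold (3.81 to 39.3) and 15.9-fold (7.01 to 44.6), for HIRA with dPCIF1 11.6-fold (4.66 to 37.0) and 26.9-fold (8.88 to 133), and for S111A S115A 12.6-fold (3.14 to 110) and 10.6-fold (2.62 to 92.6). In H3.3 mutants RpS10a was 3.79 times wild type (3.05 to 4.76) at 0.5-1 h, 0.983 times (0.732 to 1.32) at 1-1.5 h and 2.53 times (1.85 to 3.53) at 2.5-3 h. Its host gene tau did not follow it in every comparison. In the HIRA comparison of 2.5-3 h tau was at 0.296 and 0.367 CPM against 3.62 and 3.66 CPM, and in H3.3 mutants of that age at 5.41 and 4.97 CPM against 0.660 and 0.897 CPM, the same directions as RpS10a. With HIRA overexpressed at 1-1.5 h tau was at 0.945 and 0.761 CPM against 0.0448 and 0.0556 CPM, the opposite direction. Its major sister RpS10b moved little by comparison, with 861 and 759.7 CPM against 639.7 and 627 CPM in HIRA mutants of 1-1.5 h (0.35, SE 0.07). Wild type was the w1118 strain throughout, so genotype and strain background cannot be told apart.

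In wild type the members rose between 1-1.5 h and 2.5-3 h. In the HIRA experiment 84 of 88 passed as higher and 1 as lower, against 50.4% and 37.9% of genes, with a median of 0.49 (quartiles 0.42 and 0.55) where all genes had 0.32. In the H3.3 experiment 85 of 89 passed as higher and 0 as lower, against 45.9% and 36.9%, with a median of 0.58 (quartiles 0.51 and 0.64) where all genes had 0.28, and again 0 were lower by DESeq2 or at an unadjusted p under 0.05. Genes with a mean of at least 10 CPM over all libraries had medians of -0.44 (HIRA) and -0.37 (H3.3) in these comparisons. Among them, the 670 outside the set with effective transcript lengths of 200 to 800 bases had -0.07 and -0.002. In all 2 members were called higher in the HIRA experiment and 3 in the H3.3 experiment, among 35.4% and 30.3% of genes. All were weak paralogs, known mainly from the germ line. RpL37b had 37 reads against 5, an 8.85-fold ratio (3.47 to 28.8), in the first experiment and 37 against 4, or 13.9-fold (4.99 to 53.7), in the second. RpS19b had 42 against 11 (4.57-fold, 2.31 to 9.83) and 34 against 15 (3.41-fold, 1.81 to 6.73), and RpL22-like 18 against 7 (3.86-fold, 1.54 to 10.9). RpLP0 was the 1 member to fall, by 0.26 (SE 0.06) in the HIRA experiment, and it was at 1562 and 1422 CPM against 1394 and 1373 CPM in the other (0.11, adjusted p = 0.0821). Maternal markers fell in the same comparisons, by a median of 4.06 and 3.47, and their part in these shares was not tested. The HIRA controls of 1-1.5 h used here carried the markers of later differentiated cells given above, and the part of those was not tested either.

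In the mutants of 2.5-3 h these paralogs were lower than in wild type. RpL37b had 8 reads against 37 in the HIRA comparison (wild type 3.91-fold higher, 1.79 to 9.72) and 18 against 37 in the H3.3 comparison (2.97-fold, 1.65 to 5.55). RpS19b had 15 against 34 in the H3.3 comparison (3.28-fold, 1.74 to 6.48).

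Between 0.5-1 h and 1-1.5 h the wild-type experiments did not share a direction. The dPCIF1 controls fell, with 72 of 86 members lower and 6 higher (32.7% and 33.0% of genes) and a median of -0.29. RpLP2 went from 1401 and 1446 CPM to 815 and 759 CPM (-0.86, SE 0.08) and RpS20 from 1573 and 1658 CPM to 970.4 and 934 CPM (-0.76, SE 0.03), and RpS10a alone was called lower, among 0.667% of genes. The 6 higher became 3 without replicate 1 of the first age and 2 without replicate 1 of the second. The overexpression controls rose, with 54 higher and 0 lower (13.5% and 15.7%) and a median of 0.12. None was lower by DESeq2 or at an unadjusted p under 0.05. The joint fit had 5 higher, and 34, 34 and 22 were higher without either library of the first age or replicate 2 of the second. In the HIRA experiment 1 was higher and 6 lower (22.2% and 19.3%), but 43 were lower without replicate 2 of the first age, and 3 without replicate 1 of the first or replicate 2 of the second. In the H3.3 experiment 1, RpLP2 (0.38, SE 0.10), was higher and 0 lower (7.75% and 9.52%), and 7 and 0 at an unadjusted p under 0.05, with 3 and 0 by DESeq2. In the S111A S115A experiment 0 were higher and 6 lower (17.7% and 15.7%), 2 and 15 at an unadjusted p under 0.05, and 1 and 4 by DESeq2, with 36 lower without replicate 2 of the second age, 2 without replicate 2 of the first and 1 without replicate 1 of the second. The HIRA controls of 1-1.5 h are again those with the markers of later differentiated cells. Differences between experiments were not tested.

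The rest of the translation machinery is given for comparison, from gene lists chosen with earlier results known. The cytosolic ribosomal genes outside the naming rule are sta, which encodes the small-subunit protein SA, and Rack1, a scaffold on the small subunit. In HIRA mutants of 1-1.5 h sta rose by 1.22 and both genes passed as higher, and in H3.3 mutants of 2.5-3 h sta fell by 0.38 and Rack1 by 0.60. Of 7 translation elongation factors, 6 were lower and 0 higher in dPCIF1 mislocalized embryos of 0.5-1 h (median -0.46), all 7 were lower in H3.3 mutants of 2.5-3 h (median -0.48), and all 7 were higher in wild type of 2.5-3 h (medians 0.52 and 0.63). In HIRA mutants of 1-1.5 h, where the ribosomal proteins rose, 2 elongation factors were higher and 2 lower. Of 10 initiation factors, 7 were lower and 1 higher in the mislocalized embryos of 0.5-1 h, and 9 lower and 1 higher in H3.3 mutants of 2.5-3 h (median -0.58). Genes for ribosome biogenesis and RNA polymerase I, 17 in all, had 13, 11 and 15 passing as lower at the 3 ages of H3.3 mutants (medians -0.25, -0.24 and -0.62). At the first of those ages 4 of 89 members had. Regulators of ribosomal protein mRNA translation, 11 in all, had 8 lower and 1 higher at the last of these ages.

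The 73 mitochondrial ribosomal protein genes, outside the rule, serve a separate ribosome. In the mislocalized embryos of 0.5-1 h 40 were lower and 14 higher with a median of -0.15. In HIRA mutants of 1-1.5 h 28 were higher and 7 lower (0.15). In wild type of 2.5-3 h they fell where the cytosolic genes rose. In the HIRA experiment 42 were lower and 10 higher (-0.28), against 37.9% and 50.4% of all genes. In the H3.3 experiment 37 were lower and 10 higher (-0.23), against 36.9% and 45.9%. Genes with a mean of at least 10 CPM had lower medians still in these comparisons, at -0.44 and -0.37, so the fall was not particular to the mitochondrial genes. With HIRA overexpressed at 1-1.5 h 40 were lower and 2 higher (-0.19), against a median of 0.03 for the cytosolic genes.

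Among 8154 other genes, those whose group means over the 26 groups were most like the mean of the members were dUTPase (Pearson r = 0.93), which keeps uracil out of DNA, p115 (0.92), the RNA helicase Hel25E (0.91), and the elongation factor subunits Ef1gamma (0.91) and Ef1beta (0.90).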

How the data were processed

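RNA from pooled embryos was depleted of rRNA and made into strand-specific libraries, 2 biological replicates per group. Per the submitters' processing notes the authors used Trimmomatic 0.39 for trimming, STAR 2.7.10a for alignment to dm6, RSEM 1.3.1 for gene-level expected counts and TPM, and DESeq2 1.40.2 for testing. The strand setting of the counting is not given in the sources used here. The deposited expected counts were whole numbers for 94.0% to 97.2% of genes, the rest being reads shared between similar genes, and were rounded. Deposited TPM, which the authors' RSEM run divides by effective transcript length, was used only to compare levels between genes.

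Each of the 5 experiments was fitted separately in edgeR 4.0.16 (R 4.3.3, limma 3.58.1) with TMM scaling, filterByExpr (minimum count 10, minimum total 15), a quasi-likelihood test over all genes that passed the filter and Benjamini-Hochberg adjustment. Of the 92 members 86 passed the filter in the dPCIF1 mislocalized, overexpression and S111A S115A experiments, 88 in the HIRA and 89 in the H3.3 experiment. SE is the absolute log2 fold change over the square root of F. CPM uses TMM library sizes within an experiment, so levels across experiments were scaled separately. With 2 libraries against 2 no exact permutation test of a single value can reach 0.05, and p-values rest on the spread estimated across genes. The code was tested on simulated data. Alternatives were library sizes, DESeq2 1.42.0, no filter, 1 fit over all libraries and a replicate block. Others were each library left out, no fold threshold and the members without the lesser paralog copies. Effective lengths as offsets, and counts without the fold threshold for each library left out, were further alternatives chosen after seeing the data.

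Genes named in the text were those called in a comparison, up to 3 with the largest rise and fall per comparison, members of paralog groups, the 5 highest and 5 lowest by median TPM, and the 5 other genes most correlated with the set; a few others (RpLP1, tau, RpL26, RpS10b) were chosen after their values were seen. The single values of a few members are not reported here, though the counts include them. The members and all gene lists were chosen with earlier results of these data known.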

Additional observations from a re-analysis of the deposited data

Results flagged for a closer look

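In a few cases both libraries of a genotype moved one way against their controls at 1 age and the opposite way at another. None of these differences between ages was tested, groups of 2 allow no check within a group, and values are log2 fold changes over wild type. In M-Z+ HIRA embryos RpS14a was at -0.08 at 0.5-1 h and 0.34 at 1-1.5 h, and RpS16 at -0.21 and 0.13. In M-Z+ H3.3 embryos the median of all tested members went from 0.05 at 0.5-1 h to -0.14 at 1-1.5 h and -0.37 at 2.5-3 h. In the same embryos RpLP2 was at 0.07 and then -0.34, and RpS25 at 0.14 and then -0.22, at the first 2 ages. RpS14a was at 0.05 at 0.5-1 h and -0.26 at 2.5-3 h, and RpS14b at 0.17 and -0.39. RpS19b, with few reads, was at 1.46, -0.73 and -1.70 over the 3 ages. With HIRA overexpressed RpLP0 was at 0.09 at 0.5-1 h and -0.18 at 1-1.5 h.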

How the results depend on the processing

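No count of called members and no called gene reversed under any alternative run, and genotype comparisons are taken below in the order dPCIF1 mislocalized, HIRA, H3.3, HIRA overexpression, HIRA with dPCIF1, and S111A S115A, by age. Without the fold threshold 80, 69, 18, 70, 33, 11, 27, 75, 26, 38, 57, 47, 22 and 20 members passed, and in the wild-type comparisons 78 (dPCIF1 controls), 7 and 85 (HIRA), 1 and 85 (H3.3), 54 (overexpression) and 6 (S111A S115A).

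Called members became 9 of 14 in dPCIF1 mislocalized embryos of 0.5-1 h by library size and with effective lengths, 1 of 3 with DESeq2 in HIRA and in H3.3 mutants of 2.5-3 h, 2 with 1 joint fit for HIRA overexpression at 0.5-1 h, and 0 with DESeq2 for the dPCIF1 controls. With each library left out they ranged from 0 to 1 for the dPCIF1 controls (0 without replicate 2 of 0.5-1 h) and from 1 to 3 for HIRA controls of 2.5-3 h (1 without replicate 2 of 1-1.5 h).

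By library size the members' medians became -0.467 and 0.0417 (dPCIF1 mislocalized), -0.14 (HIRA, first age), 0.10, -0.11 and -0.0575 (H3.3), 0.12 (HIRA overexpression, second age), -0.0011 (S111A S115A, first age), -0.17 (dPCIF1 controls), and -0.12 and 0.54 (HIRA controls). DESeq2 gave -0.635 (dPCIF1 mislocalized, first age), 0.37 and -0.0264 (HIRA, later ages), 0.0936 (H3.3, first age), 0.0699 (HIRA overexpression, second age), and -0.14 and 0.71 (HIRA controls). The joint fit gave -0.61 (dPCIF1 mislocalized, first age), 0.35 and 0.31 (HIRA, later ages), -0.0156 (HIRA overexpression, first age), 0.0512 (HIRA with dPCIF1, first age), 0.34 (HIRA controls, later ages) and 0.0878 (overexpression controls). No filter gave -0.0624 (dPCIF1 mislocalized, second age), 0.45 (HIRA controls, later ages) and -0.12 (S111A S115A controls), and effective lengths gave -0.49 and -0.23 (dPCIF1 mislocalized, first age, and its controls). The cause of these shifts was not tested.

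With each library left out the median ranged from -0.60 to -0.57 and -0.0485 to 0.0277 (dPCIF1 mislocalized), -0.063 to 0.14, 0.33 to 0.38 and 0.10 to 0.19 (HIRA), 0.0226 to 0.063 and -0.46 to -0.23 (H3.3, youngest and oldest age), 0.031 to 0.0769 and 0.0083 to 0.0542 (HIRA overexpression), 0.0838 to 0.12 (HIRA with dPCIF1, first age), -0.0132 to 0.0871 (S111A S115A, second age), -0.33 to -0.26 (dPCIF1 controls), -0.20 to -0.0064 and 0.41 to 0.45 (HIRA controls), 0.0613 to 0.11 (H3.3 controls, first ages), 0.0907 to 0.14 (overexpression controls) and -0.10 to -0.0041 (S111A S115A controls).

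Counts past the adjusted p moved by over 1.5 times in further alternatives. By library size these were 10 higher in place of 5 and of 6 (dPCIF1 mislocalized, first age, and its controls), 14 higher in place of 7 and 16 lower in place of 26 (H3.3, first and second age), 26 higher in place of 45 (HIRA with dPCIF1, second age), 7 higher and 8 lower in place of 4 and 18 and 29 higher in place of 17 (S111A S115A), and 20 lower in place of 6 (HIRA controls, where DESeq2 gave 22 and the joint fit 16). DESeq2 gave 13 higher in place of 7 (H3.3, first age) and 16 in place of 25 (HIRA overexpression, first age). The joint fit gave 7 higher and 16 lower in place of 12 and 6 (HIRA, first age) and 9 lower in place of 18 (S111A S115A, first age). No filter gave 42 lower in place of 6 (S111A S115A controls).

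Replicate numbers did not pair the samples, as the correlations of same-numbered deviations ran from -0.22 to 0.14, and with a replicate block the counts of called members were the same, with a median of -0.37 in H3.3 mutants of 2.5-3 h. Among the called genes that are named, RpS14a, RpS14b, RpS25 and RpS9 (dPCIF1 mislocalized, first age), RpL36A (second age), RpLP0 and RpS10a (HIRA, 2.5-3 h), RpL37b and RpS19b (H3.3, 2.5-3 h), RpL22-like, RpS19b and RpS10a (wild type) lost their call in at least 1 alternative. At 23610130.5 counts per library depth limits mainly the weak paralogs.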
